A study of Mus musculus with 12 samples.

Results

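The 10 genes of the hedgehog pathway were followed through whole somatosensory cortex of mice on postnatal day 7: the ligand gene Shh, the receptor gene Ptch1, the ligand-binding Hhip, the signal transducer Smo, the coreceptors Boc, Cdon and Gas1, and the transcription factors Gli1, Gli2 and Gli3. They are 10 of the 24452 gene symbols in the tables, each is counted as 1 RefSeq transcript, and all 10 were among the 14739 symbols that passed the filter on low counts. Hhip was chosen for its low level in ethanol-treated against saline-treated p53 KO mice, and the others as parts of its pathway, so values in that comparison are given as a description without a test. The tissue came from male C57BL/6 mice, either WT or p53 KO, that were injected intraperitoneally with saline or ethanol (EtOH) and killed 8 h after the last injection, with 3 RNA samples in each of 4 groups (WT saline, WT EtOH, KO saline and KO EtOH). The p53 KO mice carried the Trp53tm1Tyj allele in all cells and, like the WT mice, were offspring of heterozygous parents. Stranded total RNA-Seq reads were counted by the authors per RefSeq transcript.

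Hedgehog ligands are secreted proteins that bind Ptch1 on the receiving cell, which releases Smo from inhibition and lets Gli proteins switch on target genes, a route that runs through the primary cilium. Gli1 and Ptch1 are themselves targets, and so is Hhip, a membrane-anchored protein that captures hedgehog ligand and so restrains the signal. In the forebrain the pathway is known for patterning the ventral telencephalon, for the upkeep of stem cells and for signalling between deep-layer neurons and glia.

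The total estimated count was between 5060577 and 17066392 in 10 libraries, 1953154 in WT saline replicate 1 and 719735 in the library labelled KO EtOH replicate 1. Both shallow libraries have names that open with L, and the other 10 open with P. Part of the study's tissue was cut by laser and part by punch, and the method behind each library is not given in the sources used here. Trp53, the gene disrupted in the KO mice, had 3.68 to 26.2 normalized CPM (counts scaled to library size with TMM factors) in WT and 11.1 to 28.7 in KO libraries, because exons outside the deleted part are still transcribed, so its sum does not check the labels. The transcript NM_001127233 held 48.3% to 70.6% of Trp53 counts in 5 KO libraries, 7.01% to 23.1% in the 6 WT libraries and 7.01% of 14 counts in the library labelled KO EtOH replicate 1, a share within the WT range that goes against its label. The same 7.01% recurred in 3 of the WT libraries, so at 14 counts it is a weak check, and the changes of Hhip and of the called members that use this library are given with and without it. Markers of excitatory cortical neurons were detected in every library. WT EtOH replicate 1 stood apart, with 412.0 summed CPM of these 9 markers against 798.0 to 1376.6 elsewhere, 1191.6 summed CPM of 5 thalamus markers against 35.1 to 183.9 (2 of the 5 were detected in all libraries), and 4996.1 summed CPM of 4 choroid plexus markers against 0 to 2247.8. In that library 9 astrocyte markers summed to 3131.7 CPM, against 1190.3 to 2753.8 elsewhere. The 5 markers of oligodendrocyte precursors summed to 385.8 CPM there, against 151.0 to 398.9 elsewhere. No 2 libraries held the same values.

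The 250 bases upstream of a RefSeq start site are shown for Hhip, the gene chosen, and for Ptch1 and Cdon. Ptch1 and Cdon were higher in KO saline than in WT saline libraries at an unadjusted p under 0.05 by edgeR. Hhip was higher there as well, but it was chosen on KO libraries, so no shared direction is read from it. The other members with such a window were not past that threshold there and are not shown. Bases run 5′ to 3′ on the gene's strand (build GRCm38.p6, CpG dinucleotides in capitals).
Hhip (chr8:80058009-80058258, minus strand): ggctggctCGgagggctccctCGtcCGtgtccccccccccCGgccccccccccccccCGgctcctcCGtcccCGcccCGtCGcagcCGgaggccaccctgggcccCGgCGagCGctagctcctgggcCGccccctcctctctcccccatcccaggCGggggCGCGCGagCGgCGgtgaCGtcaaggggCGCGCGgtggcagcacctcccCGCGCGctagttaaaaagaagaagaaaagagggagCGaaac
Ptch1 (chr13:63565736-63565985, minus strand): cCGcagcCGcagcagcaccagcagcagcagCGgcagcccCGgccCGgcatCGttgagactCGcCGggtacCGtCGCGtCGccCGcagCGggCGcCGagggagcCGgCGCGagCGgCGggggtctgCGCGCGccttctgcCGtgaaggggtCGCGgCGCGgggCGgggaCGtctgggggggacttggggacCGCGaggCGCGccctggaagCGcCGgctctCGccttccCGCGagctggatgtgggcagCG
Cdon (chr9:35451826-35452075, plus strand): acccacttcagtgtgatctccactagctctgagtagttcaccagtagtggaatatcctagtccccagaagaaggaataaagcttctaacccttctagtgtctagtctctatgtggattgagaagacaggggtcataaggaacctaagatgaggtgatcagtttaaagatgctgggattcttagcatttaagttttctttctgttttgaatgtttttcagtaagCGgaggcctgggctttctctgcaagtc
The Hhip window had 28 CpG and 76.0% GC and the Ptch1 window had 41 CpG and 78.4% GC, whereas the Cdon window had 1 CpG and 42.8% GC. The median over 32851 such windows was 6 CpG and 52.4% GC. The Ptch1 window lies before another start site than that of the counted transcript. The Gli-binding letters GACCACCCA, searched on both strands, were in 0.225% of the windows and in 0 of the 7 member windows, and with any base at the fifth position (GACCNCCCA) they were in 0.868% and again in 0 of 7, which says only that these letters are not in these 250 bases.

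Hhip lies on chr8:79965851-80058008 of mm10 (NM_020259). It had the widest span of levels among the 10 genes. It was at 3.60, 4.96 and 5.42 CPM in the WT saline libraries (replicates 1, 2 and 3, in this order throughout) and at 17.50, 7.55 and 17.05 in the WT EtOH libraries. In the KO saline libraries it was at 54.48, 52.53 and 5.68, so 2 of the 3 stood far above the remaining one, which was close to the WT saline libraries. In the KO EtOH libraries it was at 0, 2.05 and 5.07. The library at 0 was the shallow one, in which 3 counts would be 5.01 CPM and the exact 95% upper limit of 0 counts is 6.16 CPM, so that 0 does not place it below the other two or below KO saline replicate 3. The group means were in the order KO saline (37.6 ± 27.6, SD, n = 3), WT EtOH (14.0 ± 5.62), WT saline (4.66 ± 0.948) and KO EtOH (2.38 ± 2.55), and the ranges of KO saline and WT EtOH, like those of WT saline and KO EtOH, overlapped. The names of KO saline replicates 1 and 2 share their opening characters, whose meaning the labels do not give.

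**Figure D1:**
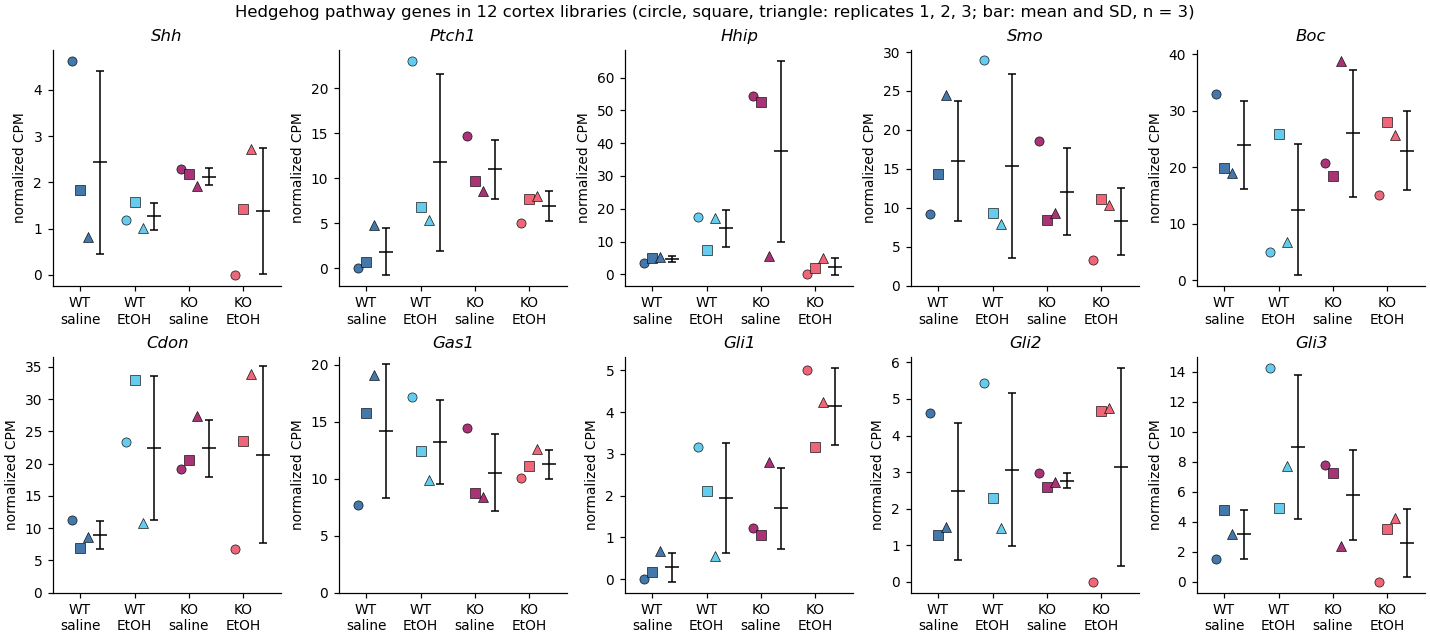
Normalized CPM of the 10 hedgehog pathway genes (y axes, a separate linear scale for each gene) in the 4 groups (x axes). Each symbol is 1 library and each bar is the mean ± SD (n = 3). Hhip was at 54.48 and 52.53 CPM in KO saline replicates 1 and 2 and at 17.50 CPM or less in the other 10 libraries.

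In WT mice, whose libraries were not used to choose Hhip, its log2 fold change under ethanol was 1.56 ± 0.73 (SE; edgeR quasi-likelihood test, adjusted p = 0.273). The spread behind this error and p was estimated from all 4 groups, KO libraries included. Here and below a gene is called, or said to be higher or lower past the test, where its unadjusted p was under 0.05, and the p-values printed are adjusted over all tested genes, by which no member passed in edgeR with all libraries. The 3 WT EtOH libraries all lay above the 3 WT saline libraries, as they did in one direction or the other for 19.5% of all tested genes, and Hhip just missed the call. It was called by DESeq2 (adjusted p = 0.191) and without TMM factors (2.04, adjusted p = 0.184 by edgeR). By limma on deposited values scaled by transcript length it was not called, at 0.44 with 1 added (adjusted p = 0.713) and 0.81 with 0.1 added (adjusted p = 0.717). With 1 library left out it was called in 4 of 12 fits, at 1.35 to 1.79 over all 12. In KO mice the ethanol log2 fold change was -3.59 ± 0.80, the value for which the gene was chosen. This was -3.39 without the library labelled KO EtOH replicate 1, and between -4.44 and -3.22 when any 1 of the 12 libraries was left out. Set against WT mice, KO mice differed by 2.97 ± 0.76 under saline and by -2.18 ± 0.76 under ethanol (-1.98 without the library labelled KO EtOH replicate 1), as descriptions, since both use KO libraries. The opposite signs under saline and ethanol rest on the KO saline and KO EtOH values by which Hhip was chosen. In a bulk sample, fewer cells that carry Hhip and less Hhip RNA per cell cannot be told apart.

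The libraries with the most Hhip, KO saline replicates 1 and 2, had 104.9 and 127.7 summed CPM of thalamus markers, 2247.8 and 24.4 of choroid plexus markers and 103.4 and 98.4 of striatum markers. All 5 markers of dividing cells were detected in every library, and they summed to 98.1 and 133.8 CPM in these libraries, 38.6 in KO saline replicate 3, 30.1 to 54.5 in KO EtOH, 44.8 to 68.3 in WT EtOH and 31.9 to 106.6 in WT saline libraries. The WT saline library at 106.6 was replicate 2, where Hhip was at 4.96 CPM. Astrocyte markers summed to 2753.8 and 2246.1 CPM in KO saline replicates 1 and 2 and to 1431.8 in replicate 3. They summed to 1562.8 to 2233.3 CPM in KO EtOH, 1774.0 to 3131.7 in WT EtOH and 1190.3 to 2597.0 in WT saline libraries. The part of all these markers in the level of Hhip was not tested.

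The 5 symbols whose profile over the 12 libraries was most like that of Hhip were Sgol2a, Nr2c2, Mfap1b, Gprin3 and Mpp5 (Pearson r = 0.93 to 0.94 of log2 CPM, the highest among 14138 symbols, a description only). Sgol2a protects the cohesion of chromosomes, Nr2c2 is a nuclear receptor and Mpp5 a scaffold of cell polarity. Like Hhip they were highest in KO saline replicates 1 and 2. Gprin3 was at 4.04 and 7.67 CPM there and at 2.14 in replicate 3, and Mpp5 was at 26.32, 29.63 and 8.26. Nr2c2 ran from 73.55 to 173.17 CPM over the 12 libraries and Hhip from 0 to 54.48, and Sgol2a, Mfap1b and Gprin3 were at 0 in the shallow library as Hhip was. All 5 had a transcript GC content below the median of tested symbols (50.4%), with a median of 41.7%, and Hhip had 41.2%.

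**Figure D2:**
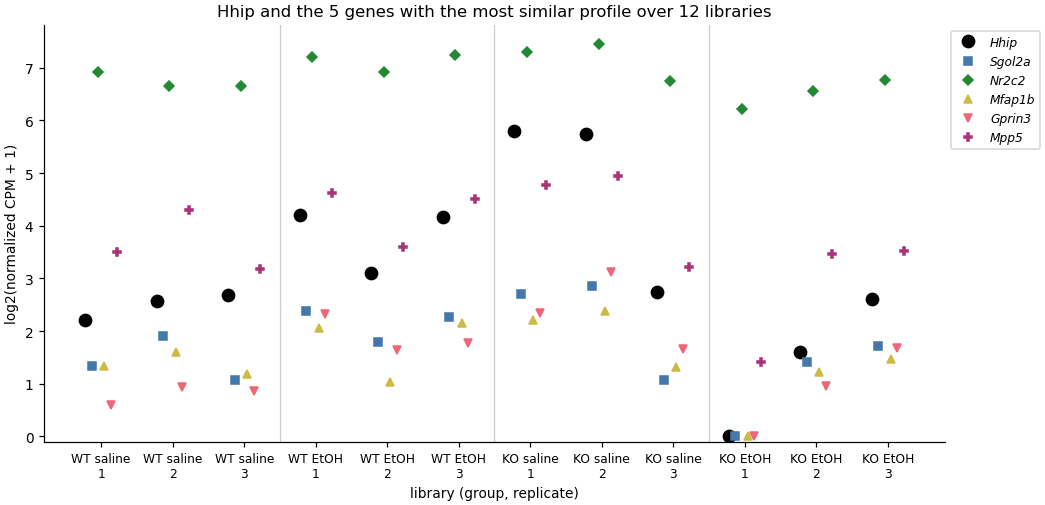
Log2(normalized CPM + 1) of Hhip and of the 5 genes with the most similar profile (y axis) in each of the 12 libraries (x axis, group and replicate). All 6 genes were highest in KO saline replicate 1 or 2, and 4 of them, with Hhip among them, were at 0 in the shallow library labelled KO EtOH replicate 1.

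The ligand gene Shh was low everywhere. Its deposited RPKM, which is scaled by transcript length, had a median of 0.536 over the 12 libraries, against 3.34 for Gas1 and 4.53 for Boc. It was at 4.63, 1.84 and 0.82 CPM in WT saline, 1.19, 1.58 and 1.02 in WT EtOH, 2.28, 2.17 and 1.92 in KO saline, and 0, 1.42 and 2.73 in KO EtOH libraries. The groups overlapped in each of the 4 comparisons of groups. The log2 fold change was -0.78 ± 0.73 under ethanol in WT mice (adjusted p = 0.576 by edgeR) and -0.01 ± 0.75 for KO against WT mice given saline (adjusted p = 0.996 by edgeR). At 0 to 43 counts a library, a change of Shh within these errors was not detectable.

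Ptch1, the receptor that holds Smo in check and a target of the pathway, lies on chr13:63511533-63565520. It was at 0, 0.73 and 4.83 CPM in WT saline and at 23.10, 6.85 and 5.37 in WT EtOH libraries, so ethanol and saline did not overlap in WT mice. It was at 14.74, 9.66 and 8.56 in KO saline and at 5.01, 7.74 and 8.06 in KO EtOH libraries. Ptch1 was called higher with ethanol in WT mice, by 2.39 ± 0.80 on the log2 scale (adjusted p = 0.203 by edgeR) and higher in KO than in WT mice under saline by 2.28 ± 0.80 (adjusted p = 0.179 by edgeR). Both comparisons share the WT saline libraries, where Ptch1 had 0, 4 and 65 counts. In KO mice the ethanol difference was -0.59 ± 0.76 (-0.31 to -0.71 with 1 library left out), with the groups apart in the downward direction, but the 5.01 CPM of the library labelled KO EtOH replicate 1 came from 3 counts, whose 95% interval (1.03 to 14.65 CPM) reaches past KO saline replicates 2 and 3. The ethanol change in KO minus that in WT mice was -2.98 ± 1.10 (adjusted p = 0.265 by edgeR), and -2.85 without that library (adjusted p = 0.500 by edgeR), and was called in both. Without WT EtOH replicate 1, the library with the thalamus markers, the change in WT mice was 1.40 (adjusted p = 0.527 by edgeR) and the difference between genotypes was -1.96 (adjusted p = 0.502 by edgeR), whereas the KO difference under saline was 2.23 (adjusted p = 0.179 by edgeR). The first 2 were no longer called. The sizes rest on WT saline replicate 3 as well. Without it, when 0 and 4 counts were left in WT saline, the 3 values were 4.54 (adjusted p = 0.124), -5.13 (adjusted p = 0.182) and 4.43 (adjusted p = 0.142, all by edgeR), all called.

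Smo, the transducer that Ptch1 inhibits, did not pass the test in any comparison. It was at 9.26, 14.33 and 24.44 CPM in WT saline, 28.99, 9.31 and 7.88 in WT EtOH, 18.51, 8.37 and 9.29 in KO saline, and 3.34, 11.13 and 10.40 in KO EtOH libraries, so that its highest level was again that of WT EtOH replicate 1. The log2 fold change under ethanol in WT mice was -0.07 ± 0.57 (adjusted p = 0.958 by edgeR), and without that library it was -0.94 (adjusted p = 0.547 by edgeR).

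Of the coreceptors, which present ligand to Ptch1, Cdon was the one called with all libraries. It was at 11.31, 6.98 and 8.62 CPM in WT saline, and at 23.38, 33.02 and 10.75 in WT EtOH, 19.21, 20.50 and 27.37 in KO saline and 6.69, 23.53 and 33.94 in KO EtOH libraries. WT saline and KO saline did not overlap. Cdon was called higher by 1.34 ± 0.52 on the log2 scale with ethanol in WT mice (adjusted p = 0.220 by edgeR), and by the same 1.34 ± 0.52 in KO than in WT mice under saline (adjusted p = 0.198 by edgeR). These share the WT saline libraries too. Markers of striatum summed to 937.8 CPM in WT EtOH replicate 2, where Cdon was at 33.02, and to 98.4 to 439.6 elsewhere, and their part was not tested. The ethanol call was kept without WT EtOH replicate 1 (1.30, adjusted p = 0.519 by edgeR) and lost without WT EtOH replicate 2 (0.89, adjusted p = 0.445), WT saline replicate 2 (1.16, adjusted p = 0.461) or WT saline replicate 3 (1.32, adjusted p = 0.324, all by edgeR). The KO difference lost its call without WT saline replicate 2 (1.18, adjusted p = 0.465), WT saline replicate 3 (1.32, adjusted p = 0.332) or KO saline replicate 3 (1.14, adjusted p = 0.364, all by edgeR). The ethanol change in KO minus that in WT mice was -1.30 ± 0.72 (adjusted p = 0.403 by edgeR), and -0.98 without the library labelled KO EtOH replicate 1 (adjusted p = 0.596 by edgeR).

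Boc, a close relative of Cdon, did not follow it. It was at 32.91, 19.84 and 19.02 CPM in WT saline and at 4.98, 25.82 and 6.76 in WT EtOH libraries, with -0.94 ± 0.57 on the log2 scale (adjusted p = 0.375 by edgeR). Without WT EtOH replicate 2 this became -2.06 and passed the unadjusted threshold (adjusted p = 0.147 by edgeR). In KO mice Boc was at 20.79, 18.39 and 38.87 CPM under saline and at 15.04, 28.03 and 25.75 under ethanol, and its difference of 0.94 ± 0.57 from WT mice under ethanol (adjusted p = 0.982) became 2.07 (adjusted p = 0.893, both by edgeR) without that same library, and 1.13 without the library labelled KO EtOH replicate 1 (adjusted p = 0.955 by edgeR). Gas1, a membrane-tethered coreceptor of another family, ran from 7.71 to 19.09 CPM in all 12 libraries, and its log2 fold changes lay between -0.46 and 0.12 in the 4 comparisons of groups.

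Gli1, the activator whose own transcription is a common readout of the pathway, had no more than 67 counts in any library. It was at 0, 0.18 and 0.67 CPM in WT saline, 3.17, 2.11 and 0.56 in WT EtOH, 1.23, 1.05 and 2.80 in KO saline, and 5.01, 3.16 and 4.25 in KO EtOH libraries. WT saline was the lowest group and KO EtOH the highest, and the KO EtOH libraries all lay above the KO saline ones. Gli1 was called higher by 2.26 ± 0.85 on the log2 scale with ethanol in WT mice (adjusted p = 0.215 by edgeR) and by 2.05 ± 0.84 in KO than in WT mice under saline (adjusted p = 0.211 by edgeR). In KO mice the ethanol difference was 1.22 ± 0.74 (0.96 to 1.82 with 1 library left out), with a sign opposite to that of Hhip, and the library labelled KO EtOH replicate 1 gave its 5.01 CPM from 3 counts. The ethanol change in KO minus that in WT mice was -1.05 ± 1.10 (adjusted p = 0.681 by edgeR), and -1.14 without that library (adjusted p = 0.745 by edgeR). The call in WT mice was lost without WT EtOH replicate 1 (1.59, adjusted p = 0.535) or WT saline replicate 2 (1.91, adjusted p = 0.468). The KO call was lost without WT saline replicate 1 (1.78, adjusted p = 0.165), WT saline replicate 2 (1.72, adjusted p = 0.487) or KO saline replicate 3 (1.45, adjusted p = 0.442, all by edgeR). Without WT saline replicate 3 the 2 values were 3.79 (adjusted p = 0.236) and 3.58 (adjusted p = 0.214, both by edgeR). The 5 symbols most like Gli1 were Pcdhga1, Alpk1, Afg3l2, Mtbp and Prss53 (r = 0.90 to 0.94 over the 12 libraries, a description), a set that shares no symbol with that of Hhip.

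Gli3, mainly a repressor of targets when ligand is absent, was at 1.54, 4.78 and 3.19 CPM in WT saline and at 14.27, 4.92 and 7.69 in WT EtOH libraries, so that the lowest ethanol library was just above the highest saline library. It was at 7.81, 7.26 and 2.36 in KO saline, where replicates 1 and 2 were high as they were for Hhip, and at 0, 3.55 and 4.25 in KO EtOH libraries. Gli3 was called higher with ethanol in WT mice, by 1.45 ± 0.67 (adjusted p = 0.268 by edgeR), and lower in KO than in WT mice under ethanol, with -1.45 ± 0.68 (adjusted p = 0.982 by edgeR). The 2 comparisons share the WT EtOH libraries. The ethanol change in KO minus that in WT mice was -2.26 ± 0.95 (adjusted p = 0.295 by edgeR). These calls were near the threshold: the difference in WT mice passed with 4 of the 12 libraries left out in turn, the KO difference under ethanol with 4 and the difference between genotypes with 6. Without WT EtOH replicate 1 the 3 values were 0.91 (adjusted p = 0.623), -0.91 (adjusted p = 1.00) and -1.68 (adjusted p = 0.519, all by edgeR), and none was called. Without the library labelled KO EtOH replicate 1 the second was -1.21 (adjusted p = 0.955) and no longer called, and the third was -2.02 (adjusted p = 0.500, both by edgeR) and still called. Gli2, the main activator, ran from 0 to 5.44 CPM and did not pass the test in any comparison, with log2 fold changes between 0.31 and 0.50 in the 4 comparisons of groups.

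**Figure D3:**
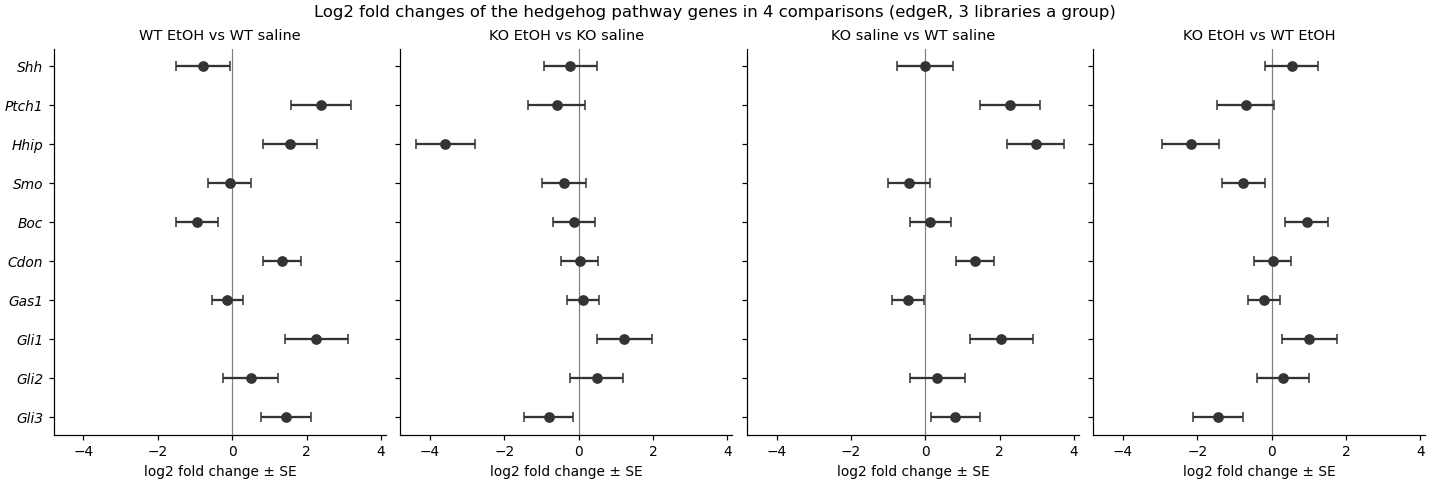
Log2 fold change ± SE (x axes, edgeR) of the 10 genes (y axis) in 4 comparisons, 1 panel each. Ptch1 (2.39), Gli1 (2.26), Gli3 (1.45) and Cdon (1.34) were past an unadjusted p of 0.05 in WT EtOH versus WT saline. In KO EtOH versus KO saline, the comparison that chose it, Hhip stood at -3.59 and the other 9 genes were between -0.81 and 1.22.

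Counted together, 4 of the 10 genes (Ptch1, Gli1, Gli3 and Cdon) were past an unadjusted p of 0.05 in WT EtOH versus WT saline, all higher. This was the case for 18.3% of all tested genes, and for 9.99% in the higher direction. Hhip is left out of the counts that use KO libraries, on which it was chosen. In KO saline versus WT saline 3 of the other 9 were called, again all higher (Ptch1, Gli1 and Cdon), against 19.6% of all genes and 9.14% in the higher direction. Under ethanol, KO against WT mice, 1 of the 9 was called, lower (Gli3), against 3.24% and 2.26% in the lower direction. For the difference in ethanol change between genotypes 2 of the 9 were called, both negative (Ptch1 and Gli3), against 15.2% and 7.67% in that direction. No count of members is given for KO EtOH versus KO saline, where 3.15% of all genes were past an unadjusted p of 0.05. After adjustment over all genes by edgeR, 0 of the 10 passed in any comparison. The share of all genes that did was 0.0746% in WT EtOH versus WT saline, 0.0543% in KO saline versus WT saline and 0.0% in KO EtOH versus KO saline, in KO EtOH versus WT EtOH and for the interaction, where 465, 477 and 2237 genes had an unadjusted p under 0.05 and DESeq2 called 2, 3 and 255 genes after adjustment. DESeq2 also called Ptch1 after adjustment in WT EtOH versus WT saline (adjusted p = 0.0467) and in KO saline versus WT saline (adjusted p = 0.0488), where it called 488 and 717 genes in all.

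Groups did not overlap for 3 genes in WT EtOH versus WT saline (Hhip, Ptch1 and Gli3, against 19.5% of all genes), for 4 in KO saline versus WT saline (Hhip, Ptch1, Gli1 and Cdon, 22.9%), for 2 in KO EtOH versus WT EtOH (Hhip and Gli3, 12.7%) and for 3 in KO EtOH versus KO saline (Hhip, Ptch1 and Gli1, 10.8%). Hhip is in the last 3 counts by its choice on KO libraries, and nothing is read from its place there. The median log2 fold change of the 10 genes was 0.915 in WT EtOH versus WT saline (0.059 over all tested genes). Hhip is left out of the medians that use KO libraries. The median of the other members was 0.32, the value of Gli2, in KO saline versus WT saline (0.041 over all tested genes). In KO EtOH versus WT EtOH it was 0.03, the value of Cdon (-0.035 over all tested genes). With library size in place of TMM factors the median of all genes moved to 0.494 in WT EtOH versus WT saline and to 0.487 in KO saline versus WT saline. The share of called genes that were higher then went from 54.4% to 89.4% and from 46.6% to 84.3%, and for the interaction from 49.4% to 19.2%. With DESeq2, whose scaling and test both differ, this share was 56.8% in place of 36.3% in KO EtOH versus KO saline. In KO EtOH versus WT EtOH it was 43.7% in place of 30.2%. The direction of the members called was the same in these fits.

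When trends of the counts with the length and base composition of transcripts were taken out library by library, the differences in WT EtOH shrank to 1.30 for Ptch1 (adjusted p = 0.353), 1.54 for Gli1 (adjusted p = 0.352), 0.44 for Gli3 (adjusted p = 0.698) and 0.53 for Cdon (adjusted p = 0.507, all by edgeR), and 0 of the 4 were called. Boc was then lower by -1.47 (adjusted p = 0.246 by edgeR). In KO saline versus WT saline Smo was then called lower (-1.10, adjusted p = 0.325 by edgeR), while Ptch1 was at 1.31 (adjusted p = 0.380), Gli1 at 1.41 (adjusted p = 0.406) and Cdon at 0.52 (adjusted p = 0.530, all by edgeR), and for the interaction Ptch1 was at -1.64 (adjusted p = 0.579) and Gli3 at -1.01 (adjusted p = 0.664, both by edgeR). Hhip was then at 0.73 for ethanol in WT mice (adjusted p = 0.543 by edgeR) and not called. It was at -2.90 for ethanol in KO mice and at 1.91 for KO against WT mice under saline. Another fit left out 3 libraries, WT EtOH replicate 1 and the 2 shallow ones, a choice made after seeing the data. WT saline replicate 2 was kept, though it had the lowest TMM factor (0.5638, against 0.8316 to 1.229 elsewhere). That library also had the highest sums of blood markers (2566.5 CPM) and of fibroblast markers (839.5 CPM). In this fit Cdon was still called higher in WT EtOH (1.45, adjusted p = 0.0774 by edgeR) and Smo was called lower there (-1.21, adjusted p = 0.0999 by edgeR). In KO saline, Cdon (1.48, adjusted p = 0.0370 by edgeR) and Ptch1 (1.83, adjusted p = 0.0378 by edgeR) were then past the adjusted threshold as well and Gas1 was called lower (-0.77, adjusted p = 0.119 by edgeR), with WT saline replicates 2 and 3 left. Among all genes, 6195 were called in KO saline versus WT saline in this fit, against 2890 with all libraries. In WT EtOH versus WT saline 4737 were called, against 2704. Under ethanol Gli2 was called higher in KO than in WT mice (1.35, adjusted p = 0.699 by edgeR) and Gli3 was no longer called.

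The sums of 5 general neuron markers and of blood markers moved with the comparisons to WT saline. The 5 neuron markers, all detected in every library, summed to 7878.9 to 8339.1 CPM in WT saline, 4030.0 to 6334.0 in WT EtOH and 5551.3 to 6834.1 in KO saline libraries. The 6 blood markers, detected in every library as well, summed to 424.2 to 2566.5, 96.9 to 276.2 and 61.9 to 169.3 CPM. For these sums WT saline thus lay above those 2 groups without overlap. The KO EtOH libraries were at 10376.0, 4635.6 and 4844.3 CPM for the neuron markers and at 1262.9, 63.4 and 58.8 for the blood markers. The library labelled KO EtOH replicate 1 thus had the highest neuron sum of the 12 libraries and a blood sum within the WT saline range. In WT saline, WT EtOH and KO saline libraries, in this order, 9 markers of excitatory cortical neurons summed to 1144.0 to 1376.6, 412.0 to 1249.9 and 1129.7 to 1332.5 CPM. The 10 interneuron markers summed to 335.4 to 664.8, 483.4 to 733.7 and 420.6 to 529.9 CPM. For both of these lists WT saline overlapped WT EtOH and KO saline. In KO EtOH libraries the 2 lists summed to 935.4 to 1017.6 and 536.3 to 1076.5 CPM. The part of all these markers in the calls of Ptch1, Gli1, Gli3 and Cdon was not tested.

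**Figure D4:**
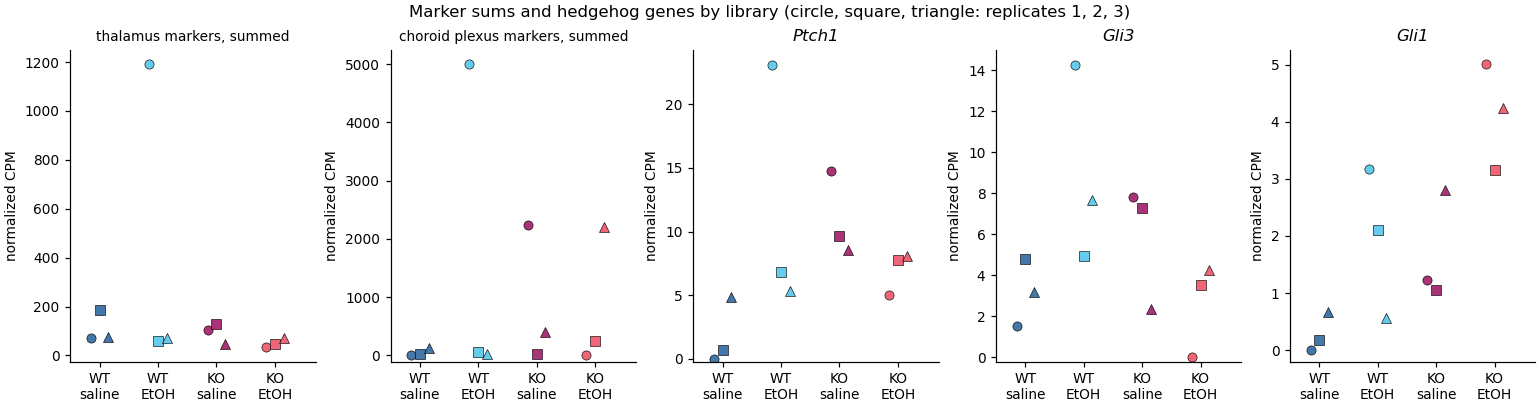
Summed normalized CPM of 5 thalamus and 4 choroid plexus markers, and normalized CPM of Ptch1, Gli3 and Gli1 (y axes, linear), by group (x axes), 1 symbol a library. WT EtOH replicate 1 (circle) was highest for both marker sums (1191.6 and 4996.1), for Ptch1 (23.10) and for Gli3 (14.27). Gli1 was at 3.17 in that library, its highest WT value, and at 5.01, 3.16 and 4.25 in the KO EtOH libraries.

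The wider pathway was read from 5 lists of 109 genes, of which 92 were tested beside the 10 members. In WT EtOH versus WT saline 10 of these 92 were higher and 1 was lower at an unadjusted p under 0.05, and in KO saline versus WT saline 6 were higher and 5 lower, against the 18.3% and 19.6% of all genes. For ethanol in KO mice edgeR called 0 of the 92 (3.15% of all genes), and between genotypes under ethanol 3 were lower, beside 2.26% of all genes. Their median log2 fold change was 0.35, 0.28, -0.04 and -0.13 in these comparisons.

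Of 14 tested genes for ligands and their release, 2 were called higher with ethanol in WT mice, beside 9.99% of all tested genes. These were Scube1, with 1.39 ± 0.60 (adjusted p = 0.246 by edgeR), and Scube3, with 2.18 ± 0.76 (adjusted p = 0.208 by edgeR), which encode secreted proteins that help lipid-modified ligand leave the cell. Without WT EtOH replicate 1 they were at 1.09 (adjusted p = 0.546) and 1.24 (adjusted p = 0.544, both by edgeR). Under saline Scube3 was higher in KO mice (1.63 ± 0.75, adjusted p = 0.252 by edgeR) and Gpc3, a glypican that binds ligand away from Ptch1, was lower (-1.46 ± 0.66, adjusted p = 0.246 by edgeR). Gpc3 was at 32.52 CPM in WT saline replicate 2 and at 3.09 to 16.99 elsewhere, and that library also had the highest sum of 6 fibroblast markers (839.5 CPM against 11.3 to 347.2).

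Of 8 receptors and coreceptors, 6 of them members, Lrp2 was the other one called. This large endocytic receptor binds Shh and is also abundant in choroid plexus. It had 45 counts in the WT EtOH, 41 in the KO saline and 3 in the WT saline libraries, a ratio to WT saline of 9.15 (95% counting interval 2.94 to 46.0) and of 6.78 (2.16 to 34.2). It was at 2.09 CPM in WT EtOH replicate 1 and at 0.35 and 0.56 in the others, and the ethanol call was lost without replicate 1 (1.73, adjusted p = 0.541 by edgeR). Choroid plexus markers summed to 4996.1 CPM in WT EtOH replicate 1 and to 2247.8 in KO saline replicate 1, and their part in Lrp2 was not tested.

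Of 49 tested genes of cytoplasmic and ciliary transduction, 3 were called higher with ethanol in WT mice, beside 9.99% of all tested genes. The median of the list was 0.31. Dyrk2, a kinase that acts on Gli proteins, was at 2.06, 1.65 and 10.62 CPM in WT saline and at 21.86, 13.17 and 17.42 in WT EtOH libraries (1.76 ± 0.72, adjusted p = 0.230 by edgeR), and at 25.70, 24.24 and 14.83 in KO saline libraries (2.06 ± 0.72, adjusted p = 0.179 by edgeR). Kif3b, a motor subunit of transport along the cilium, was higher in both as well (1.06 ± 0.40, adjusted p = 0.215 and 1.17 ± 0.40, adjusted p = 0.177 by edgeR), and its call held without WT EtOH replicate 1 (1.13, adjusted p = 0.519 by edgeR). Ift122, a retrograde transport protein of the cilium, was higher by 0.82 ± 0.38 with ethanol (adjusted p = 0.267 by edgeR), and B9d1, a protein of the ciliary transition zone, was lower in KO saline by -1.20 ± 0.48 (adjusted p = 0.203 by edgeR).

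Of 11 Gli factors and partners, 5 were called higher with ethanol in WT mice, 2 of them members, beside 9.99% of all tested genes. Zic1, a zinc-finger protein related to the Gli family, was at 1.03, 15.43 and 3.86 CPM in WT saline and at 405.86, 8.61 and 6.95 in WT EtOH libraries. One library thus carried its fold change of 4.31 ± 1.34 (adjusted p = 0.194 by edgeR), which was 0.12 without it (adjusted p = 0.966 by edgeR). Glis3 was likewise at 13.59 in that library and at 6.66 or less in all others (1.84 ± 0.74, adjusted p = 0.228, and 0.85, adjusted p = 0.644 without it, by edgeR). Glis1 rested on 37 counts against 1 (ratio 22.6, 95% counting interval 3.81 to 915.4), and was at 1.87 CPM in that library and at 0.18 and 0.28 in the other WT EtOH libraries. Under ethanol Zic1 and Zic2 were lower in KO than in WT mice by -3.15 and -3.46 (adjusted p = 0.982 for each by edgeR), and at 1.02 and 0.31 without WT EtOH replicate 1.

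Of 24 known targets, 3 of them members, 3 were called higher and 1 lower with ethanol in WT mice. Among all tested genes 18.3% were called there, and 9.99% in the higher direction. Ccnd2, a cyclin of the G1 phase, was at 34.45, 17.64 and 45.46 CPM in WT saline and at 110.18, 39.17 and 89.59 in WT EtOH libraries (1.29 ± 0.54, adjusted p = 0.235 by edgeR; 0.97, adjusted p = 0.545 without WT EtOH replicate 1). Igfbp6, a binding protein of insulin-like growth factors, was the lower one (-1.92 ± 0.81, adjusted p = 0.239 by edgeR). Of the 21 tested targets that are not members, 2 were higher and 3 lower in KO saline versus WT saline. Among all genes 19.6% were called there, and 9.14% in the higher direction. Ccnd2 was at 136.24, 96.04 and 32.23 CPM in the KO saline libraries, higher in replicates 1 and 2 as Hhip was (1.44 ± 0.54, adjusted p = 0.192 by edgeR). Igfbp6 (-2.98 ± 0.84, adjusted p = 0.176 by edgeR) and Igf2 (-2.32 ± 0.83, adjusted p = 0.183 by edgeR) were lower, and Igf2 was at 602.67 CPM in WT saline replicate 2, the library with the fibroblast markers, and at 205.70 or less elsewhere. Olig2 and Foxc2, the remaining higher and lower one, were named after their values were seen. For ethanol in KO mice edgeR called 0 targets other than Hhip, beside 3.15% of all tested genes.

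**Figure D5:**
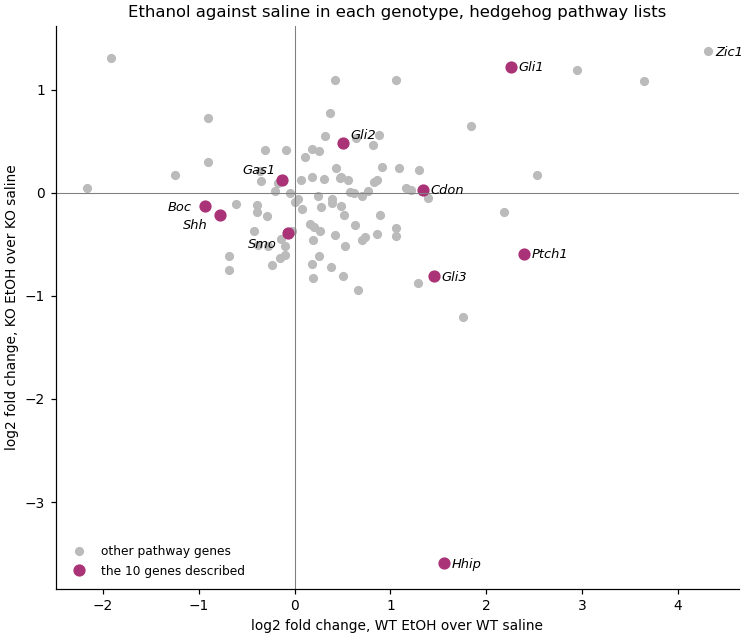
Log2 fold change of ethanol over saline in WT mice (x axis) and in KO mice (y axis) for the 10 genes described (purple) and the 92 other tested pathway genes (grey), 1 point a gene. Hhip, at 1.56 and -3.59, stands apart by the comparison it was chosen on, Gli1 was above 0 on both axes (2.26 and 1.22), and Zic1 is placed at 4.31 by 1 library.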

How the data were processed

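Whole somatosensory cortex of 12 mice was measured by RNA-Seq. Per the methods, the authors removed low-quality reads, aligned the rest to mm10 with Bowtie2 in TopHat and, in Partek Flow, estimated the reads of each RefSeq transcript. These estimated counts, as deposited, are unscaled, include fractions and sum to 719735 to 17066392 a library. The authors also deposited RPKM per transcript, whose values have nearly the same distribution in all libraries. Settings of Partek Flow are not given in the sources used here.

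Estimated counts were summed per gene symbol, rounded and tested in edgeR 4.0.16 (R 4.3.3) by quasi-likelihood, after filterByExpr and TMM scaling, with a mean fitted to each of the 4 groups. The 5 contrasts were those of ethanol and saline within each genotype, of genotypes within each treatment, and the interaction. All p-values were two-sided and were adjusted by the Benjamini-Hochberg method across 14739 symbols. A gene was called at an unadjusted p under 0.05. By edgeR each p-value sets a difference of group means against a spread between libraries, estimated from all 4 groups and moderated across genes. Replicates were numbered in the order of the sample list. The members, lists and tests were chosen with earlier results of these data known. Genes named were the members, up to 4 genes a list and comparison with the smallest unadjusted p under 0.05 in the contrasts other than KO EtOH versus KO saline and the interaction, the 5 symbols most correlated with Hhip or Gli1 (mean of at least 1 CPM, log2 CPM with a prior count of 2), and marker sums that moved with a member. Intervals (95%, exact binomial) and the floor of 3 counts cover counting error only. Transcript length and GC content came from GENCODE for 98.9% of tested symbols, and upstream sequences from RefSeq for 7 of the 10 members (not Gli1, Boc or Shh). The models were tested on simulated counts. Alternatives used DESeq2 1.42.0, limma 3.58.1 on log2(RPKM + 1) and log2(RPKM + 0.1), other filters and scalings, single transcripts, the name letter as a term and libraries left out. One gene that the naming rule picked is not reported here.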

Additional observations from a re-analysis of the deposited data

Results flagged for a closer look

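Hhip had a log2 ethanol change of 1.56 ± 0.73 in WT and -3.59 ± 0.80 in KO mice, a difference of -5.15. It was singled out because all WT EtOH libraries lay above all WT saline libraries and all KO EtOH libraries below all KO saline libraries, and no p is given for the difference, since it holds the values on which the gene was chosen. The KO saline group rests on 2 libraries at 54.48 and 52.53 CPM and the other at 5.68, just above the 5.07 of the highest KO EtOH library.

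The ethanol change in KO minus that in WT mice was -2.98 for Ptch1 and -2.26 for Gli3. Both were past an unadjusted p of 0.05 by edgeR, like 15.2% of all genes, but neither passed after adjustment over all genes (adjusted p = 0.265 and 0.295 by edgeR). Without WT EtOH replicate 1 they were at -1.96 (adjusted p = 0.502) and -1.68 (adjusted p = 0.519, both by edgeR), and both lost the call at an unadjusted p of 0.05. Ptch1 was lower with ethanol in 3 of 3 KO libraries and higher in 3 of 3 WT libraries than any saline library of the same genotype, but the library labelled KO EtOH replicate 1, whose genotype label is doubtful, gave its 5.01 CPM from 3 counts (95% interval 1.03 to 14.65 CPM).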

How the results depend on the processing

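In the shallower of the 2 L libraries 3 counts correspond to 5.01 CPM, which limits detection of genes below that level. No member kept 10 counts in every library, so that filter gives no member count. No paired analysis was possible because the groups share no replicate number in the labels. Of 1139 member fold changes recomputed under the alternatives, 949 kept their sign and their side of an unadjusted p of 0.05, 79 lost the call, 25 gained it, 86 that were past it in neither fit changed sign and 0 that were past it in either fit did so. The causes of these changes were not tested.

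Counts of members called do not hold the same genes under each alternative, and those with KO libraries include Hhip, as a description, since it was chosen on them. In WT EtOH versus WT saline 4 members were called, 2 with limma on log2(RPKM + 1) (Ptch1, and Boc as lower), 2 with the name letter as a term (Ptch1 and Gli1), 1 with length and GC trends removed (Boc, lower), 2 without the thalamic-marker library and the L libraries, chosen after seeing the data (Cdon, and Smo as lower), and 1 to 5 with 1 library left out. The 2704 genes became 1524 with 10 counts in every library, 1759 and 1516 with limma at pseudocounts of 1 and 0.1, 5582 without the L libraries, 4737 without the thalamic-marker library as well, and 1417 to 4751 with 1 library left out. In KO EtOH versus KO saline the count of 1 (Hhip) was 2 with limma on log2(RPKM + 0.1) and 2 with only the groups compared (with Gli1 in both), and 1 with 1 library left out. The 465 genes became 308 with 10 counts in every library, 229 with the name letter, 198 with trends removed, 708 without the 3 libraries, and 48 to 1141 with 1 library left out. In KO saline versus WT saline the count of 4 was 2 with limma on log2(RPKM + 1) (Hhip and Ptch1) and 2 with trends removed (Hhip, and Smo as lower), and 2 to 4 with 1 library left out. The 2890 genes became 1781 with 10 counts in every library, 1848 and 1596 with limma at pseudocounts of 1 and 0.1, 5863 without the L libraries, 6195 without the 3 libraries, and 1647 to 5039 with 1 library left out. In KO EtOH versus WT EtOH the count of 2 was 1 without TMM factors, per transcript, with the name letter, without the L libraries, with only the groups compared and with trends removed (Hhip in all), 1 without the 3 libraries (Gli2, higher), 4 with limma on log2(RPKM + 0.1) (with Gli1 and Boc as higher), and 0 to 3 with 1 library left out. The 477 genes became 264 with 10 counts in every library, 950 without the L libraries, 856 without the 3 libraries, and 274 to 739 with 1 library left out. For the interaction the count of 3 was 1 (Hhip) with the name letter, with trends removed and without the 3 libraries, and 1 to 4 with 1 library left out. The 2237 genes became 1491 with 10 counts in every library, 1424 with trends removed, and 1473 to 3538 with 1 library left out. Profile correlations fell from 0.94 to 0.83 for Nr2c2 with Hhip without TMM factors, and without the L libraries from 0.93 to 0.83 for Mpp5 with Hhip and from 0.90 to 0.80 for Prss53 with Gli1.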

Other observations

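Hhip and Gli1, both regarded as targets of the pathway, did not have a common profile over the 12 libraries (Pearson r = -0.25 of log2 CPM), while Gli1 and Ptch1 had r = 0.79 and Hhip and Gli3 had r = 0.88. These are descriptions over libraries that differ in depth, and the library labelled KO EtOH replicate 1, with 719735 counts, had 0 counts for both Hhip and Gli3. Gli2 and Shh, at r = 0.86, were at 0 in that library as well.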
